A study of Homo sapiens with 50 samples.

Results

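The hairpins described here target ATP-dependent chromatin remodellers of the ISWI, INO80 and SWR1 classes together with 4 related SNF2-type ATPases. They are the 53 hairpins, of 3443 in the library, that name only 1 gene and whose gene is BPTF, SMARCA1 or SMARCA5 (ISWI), INO80 or RUVBL1 (INO80), SRCAP or EP400 (the SWR1 class), or ATRX, HELLS, SMARCAD1 or SMARCAL1. The members were chosen by gene name alone (names that begin with INO80 or RUVBL, and the others listed). The rule used no measured value, but earlier results of these data were known when it was set. The 11 genes have 4 or 5 hairpins each. All 11 names are current gene symbols, and no hairpin that names several genes includes one of them.

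Remodellers use ATP to slide, evict or exchange nucleosomes. ISWI enzymes space nucleosomes into regular arrays. The INO80 and SWR1-class complexes serve transcription, replication and DNA repair, and the SWR1 class exchanges H2A in nucleosomes for the histone variant H2A.Z. ATRX loads the histone variant H3.3 into heterochromatin and telomeres, HELLS supports DNA methylation of repeats, SMARCAD1 preserves heterochromatin through replication, and SMARCAL1 remodels stalled replication forks. In fibroblasts, replicative senescence is the lasting arrest that follows a limited number of divisions.

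The screen used IMR90 cells, a line of normal human lung fibroblasts, grown at 3% oxygen and infected with pools of lentiviruses at a multiplicity of infection of 0.3. Each virus carried a short hairpin RNA built to lower 1 gene, and a cell that outgrows its neighbours on passage raises the share of its hairpin in the culture's DNA. Cells of 10 plates were collected at population doublings (PD) 40, 45, 50, 55 and 60, where PD40 is the proliferating start and PD60 the senescent end. Hairpins were assigned at random to 5 starting pools, and each of these went onto 4 plates. The deposited table has 1 column of tags (sequence reads assigned to a hairpin) for each PD, so every value below is the authors' pooled value with no replicate. Hairpins of 1 gene share a target, and are not replicates of a condition.

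The 5 columns held 8270745 to 11505688 tags. Values are tags, or CPM (a hairpin's tags scaled to the column total). A log2 fold change is the log2 of CPM plus 1 at the later PD over the same quantity at PD40, and it understates the losses of hairpins that started low. Intervals are exact 95% Poisson intervals and cover counting error only, because PCR products without molecular identifiers are not independent molecules. Without replicates no difference could be tested against the spread between cultures. A value of 0 tags at PD60 allows up to 3 tags, or 0.363 CPM, and folds against 0 are bounds taken at that floor for each hairpin. Such bounds leave out the counting error at PD40. The exact 95% intervals reach lower folds, as for ATRX TRCN0000013591 at 315-fold against 388-fold at the floor. Clones of the library are named by their TRCN catalogue numbers; the hairpin sequences were not used here.

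All directions are relative to the column total. The median log2 fold change over all hairpins was -1.63, -3.46, -4.93 and -5.86 in the PD45, PD50, PD55 and PD60 columns. With TMM scaling, a trimmed-mean alternative to column totals, these medians were -0.43, -0.79, -1.26 and -1.84. The typical hairpin thus stayed below its start under TMM as well, so TMM directions are not relative to the typical hairpin. For leading hairpins the percentile is also given, which is the place of its log2 fold change among all hairpins measured at that PD.

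As a set, the remodeller hairpins held a far smaller share of the library at PD60 than at PD40. With column totals none ended over 2-fold above its start, and only 2.28% of all measured hairpins did. Their tags summed to 116172 in the PD40 column and to 92036, 58076, 23225 and 4772 in the later ones. These sums were 1.35% (1.34 to 1.35), 1.05% (1.04 to 1.05), 0.685% (0.679 to 0.690), 0.202% (0.199 to 0.205) and 0.0577% (0.0561 to 0.0594) of all tags, with exact 95% binomial intervals. Their share was 23.3-fold lower (22.7 to 24.0) at PD60 than at PD40. Other remodeller families differed: the share of the CHD and NuRD hairpins was 44.4-fold lower (42.4 to 46.5). That of the SWI/SNF hairpins stood at a ratio of 1.03 (1.02 to 1.03). This sum rests largely on 1 hairpin, with 15.6% of the SWI/SNF tags at PD40 and 61.2% at PD60. Of 69 measured SWI/SNF hairpins, 62 were over 2-fold lower at PD60. Of the members' tags left at PD60, 57.9% belonged to SRCAP TRCN0000021355. Without that hairpin the members' share was 0.0243% of all tags.

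Counted hairpin by hairpin, the set followed the library closely. By PD60, 0 of the 53 exceeded their PD40 level over 2-fold, against 2.28% of all measured hairpins, and 52 were over 2-fold lower, against 95.3%. The remaining one was HELLS TRCN0000000307. These directions depend on the scaling: with TMM 13 of 53 members were over 2-fold higher at PD60 and 32 over 2-fold lower, against 18.8% and 64.4% of all hairpins. At PD45 2 of 53 were over 2-fold higher (5.73% of all) and 31 over 2-fold lower (63.2% of all). At PD50 the counts were 1 higher (4.94% of all) and 44 lower (81.9% of all), and at PD55 they were 1 higher (2.92% of all) and 50 lower (91.7% of all). The shares called in the set, 3.77%, 1.89%, 1.89% and 0% higher at the 4 times, lay below the library's with column totals. With TMM the set's shares were slightly above the library's instead, with 13, 16, 15 and 13 of 53 higher against 19.8%, 25.6%, 23.6% and 18.8% of all hairpins. Neither difference was tested. The TMM calls at PD60 include hairpins with few tags left, such as RUVBL1 TRCN0000018913 with 4 and SMARCA1 TRCN0000050626 with 7. TMM's effective totals were 77135779 tags at PD40 and 642734 at PD60. The pseudocount of 1 CPM thus stands for many more tags at PD40 than at PD60. Between neighbouring columns, 1 of 48 measured members was over 2-fold higher and 32 over 2-fold lower at PD50 than at PD45 (2.22% and 71.4% of all). At PD55 the counts against PD50 were 1 and 32 of 38 (1.7% and 80.8% of all).

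The median log2 fold change of the 53 hairpins was -1.58, -3.31, -4.31 and -5.58 in the PD45, PD50, PD55 and PD60 columns. At these times 28, 27, 34 and 31 of the 53 lay above the median of all hairpins. The set's medians thus stood slightly above the library's, and the hairpins themselves ranged far wider, with -8.83, -7.82 and -7.57 near the lower end at PD60 and -0.11 at the upper end. The non-targeting hairpin, the control that matches no human gene, had log2 fold changes of -1.38, -2.73, -5.40 and -6.53 at the 4 later times. Above it lay 25, 26, 38 and 37 of 53 remodeller hairpins at these times, and 44.7%, 39.2%, 61.3% and 65.7% of all hairpins. The control is 1 hairpin and had 39 tags at PD60, and these differences were not tested.

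Most members were highest at the start. For 43 of 53 the highest CPM was at PD40, and 10 peaked later (80.4% and 19.6% of all hairpins). Of these 10, 6 peaked at PD45 (12% of all), 3 at PD50 (3.98%), 1 at PD55 (1.74%) and 0 in the last column (1.95%). A lower CPM at every step was found for 27 of 53, against 48.4% of the library. Hairpins already at 0 before PD60 and still at 0 there are not in these counts, since their last step was not lower. Only 3 hairpins were over 2-fold above PD40 in any later column, against 8.59% of the library. These were INO80 TRCN0000107559, SMARCA5 TRCN0000013213 and HELLS TRCN0000000307, and they peaked at different times.

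No member was at 0 tags at PD40 (0.0581% of all hairpins) or PD45 (1.42%). At PD50 3 members were at 0 (9.47%), at PD55 9 (18.4%) and at PD60 20 (44.1%). Hairpins that began low were more often at 0. Of the 12 members in the lowest quintile of PD40 abundance, up to 323 tags, 11 were at 0 at PD60, against 84.5% of all hairpins in that quintile. In the highest quintile, from 2998 tags, 0 of 10 were at 0, against 1.45%. In the 4th quintile, from 1412 to 2986 tags, 0 of 12 members were at 0, against 19.2% of all hairpins there. At PD45 the quintiles differed from the library in both directions. From the lowest quintile to the highest, 12 of 12, 4 of 9, 7 of 10, 6 of 12 and 2 of 10 members were over 2-fold lower, against 90.8%, 78.5%, 63.6%, 52.3% and 31.9% of all hairpins.

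The share of a gene's tags held by its leading hairpin was larger at PD60 than at PD40 for 9 of the 11 genes. It was smaller for INO80, at 61.3% against 87.6%, and for RUVBL1, at 63.6% against 85.4%. The library moved the same way. Over all genes with at least 3 hairpins the median share was 44.5% at PD40 and, where tags remained, 90.5% at PD60. At PD40 1 hairpin held over 50% of its gene's tags for 7 of the 11 genes, against 37.9% of all genes with at least 3 hairpins. That was so for 9 genes at PD45 (77.7% of all genes), 9 at PD50 (86.5%) and 10 at PD55 (90.8%). At PD60 it held for 11 of 11 genes, against 93.3% of all genes that still had a tag. For 8 of 11 genes the most abundant hairpin was the same at PD60 and at PD40, against 59.4%. The 3 genes whose leader changed were EP400, INO80 and SMARCA1.

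INO80, the ATPase of the INO80 complex, had the hairpin with the largest early gain of the set and also its most abundant one at the start, and these took opposite courses. TRCN0000107559 had 1094, 5673, 7220, 1800 and 76 tags at PD40, PD45, PD50, PD55 and PD60. In the same order that is 126.8, 645.9, 851.4, 156.4 and 9.19 CPM. It was far above its start at PD45 and PD50, near it at PD55 and far below it at PD60. Its ratio to PD40 was 5.09 (4.77 to 5.44) at PD45, 6.71 (6.30 to 7.16) at PD50 and 1.23 (1.14 to 1.33) at PD55. At PD60 it was 13.8-fold lower (10.9 to 17.7). Among all hairpins its log2 fold change stood at percentiles 99.3, 99, 95.8 and 84.7 at the 4 later times. With TMM scaling its PD60 value, -3.65 with column totals, was 2.97, so its direction at the end depends on the scaling.

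INO80 TRCN0000107558 started as number 37 of the library with 23401 tags, 20.1% of all tags of the set. It then had 7970, 1870, 412 and 41 tags at PD45, PD50, PD55 and PD60. Each step was lower than the one before by 2.99-fold, 4.12-fold, 6.16-fold and 7.22-fold. At PD60 it was 547-fold below PD40 (403 to 763), at percentile 1.36 of all hairpins. The other INO80 hairpins ended at 0, 2 and 5 tags. TRCN0000107555 was 1.46-fold higher (1.30 to 1.64) at PD45 and had 3 tags at PD55. TRCN0000107556 and TRCN0000107557 had a lower CPM at every step. The 5 hairpins together had 124 tags at PD60, against 26713 at PD40, a sum 207-fold lower (173 to 248). At PD45 the mean log2 fold change for INO80 was -0.50 (SD 1.90 over 5 hairpins), the 55th highest of 631 genes. It was -6.13 (SD 1.87) at PD60, where it stood 459th.

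RUVBL1 encodes an AAA+ ATPase that forms a ring in the INO80, SRCAP and EP400 complexes. Of its 5 hairpins, 4 started at 105 to 207 tags, in the lowest quintile of the library, and had 0, 0, 0 and 4 tags at PD60. The 3 at 0 were at least 33.6-fold, 47.0-fold and 66.2-fold lower. TRCN0000018911 was already at 1 tag at PD45, against 105 at PD40, and TRCN0000018912 at 3, against 207. The abundant hairpin, TRCN0000018910, had 3598, 3437, 1283, 268 and 7 tags at the 5 times. It held its share to PD45, with a ratio of 0.938 (0.895 to 0.983), and was 493-fold lower (239 to 1227) by PD60. TRCN0000018913 had 157, 14, 37, 13 and 4 tags, and its PD60 value was 37.6-fold lower (14.4 to 140). RUVBL1's mean was -2.45 (SD 1.66) at PD45, 529th of 631 genes, and -4.81 (SD 1.73) at PD60, at percentile 76.5 of the gene means. With so few starting tags the later value is bounded by depth.

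Among the ISWI genes, SMARCA5 had 1 hairpin that was higher at PD45 and 4 that were already far lower. SMARCA5 encodes SNF2H, the main ISWI ATPase of dividing cells. TRCN0000013213 had 5532, 11653, 6182, 1117 and 95 tags at the 5 times, or 641.3, 1327, 729, 97.1 and 11.5 CPM. Its ratio to PD40 was 2.07 (2.00 to 2.14) at PD45 and 1.14 (1.10 to 1.18) at PD50. It was 6.61-fold lower at PD55 and 55.8-fold lower (45.6 to 69.1) at PD60. The percentiles were 94.8, 91.2, 82.1 and 54.1, so it lay mid-library at PD60 and near the top at PD45. With TMM scaling the PD60 log2 fold change was 1.03. At PD45 the other 4 hairpins had 11 to 110 tags, against 173 to 953 at PD40. At PD60 they had 0, 0, 0 and 2 tags, and TRCN0000013213 held 97.9% of the gene's tags. The PD60 ratio of TRCN0000013214, with 2 tags left of 953, was 0.00219 (0.000265 to 0.00793).

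SMARCA1 encodes SNF2L, the paralogous ISWI ATPase. Its 5 hairpins started at 375 to 3264 tags and ended at 7 to 64. With EP400 and SMARCAD1 it was 1 of 3 genes of the set with no hairpin at 0 at PD60. TRCN0000050624 kept the most, with 2768, 2624, 1232, 921 and 64 tags. That is 320.9, 298.8, 145.3, 80.05 and 7.738 CPM, and it was 10.3-fold lower (8.02 to 13.5) at PD60 than at PD55. TRCN0000050623 had 10 tags at PD60, against 3264 at PD40, 313-fold lower (170 to 653). TRCN0000050625 started at a similar level, 3113 tags, but had 328 at PD45 and 34 at PD50, and was 230-fold lower (134 to 432) at PD60. At PD45, TRCN0000050625 thus stood apart from TRCN0000050623 and TRCN0000050624, which had 2849 and 2624 tags. TRCN0000050627 had 350 tags at PD45, against 1428 at PD40, and was 196-fold lower (94.7 to 487) at PD60. TRCN0000050626 had 375, 437 and 436 tags up to PD50, then 93 and 7. With TMM scaling the gene's PD60 mean of -6.17 (SD 1.23) was -0.12.

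BPTF encodes the largest subunit of NURF, the ISWI complex that binds trimethylated H3K4 through a PHD finger and acetylated H4 through a bromodomain. No BPTF hairpin was above PD40 in any later column, and their log2 fold changes at PD60 ran from -7.20 to -5.58 (mean -6.17, SD 0.73). For the 4 hairpins with 0 to 2 tags at PD60 that value is set by the starting tags and the pseudocount, so their closeness is not a measurement. TRCN0000016821 started with 2645 tags and had 2225, 655, 150 and 9 later, which is 282-fold lower (148 to 617) at PD60. The others started at 404 to 982 tags and ended at 0, 0, 1 and 2. Summed over 5 hairpins BPTF had 12 tags at PD60, against 5035 at PD40, the largest relative loss of the 11 genes at 402-fold (230 to 779). The next sum, that of RUVBL1, was 367-fold lower (205 to 736), and the intervals overlap. BPTF's mean stood 359th, 486th, 529th and 468th of 631 genes at the 4 later times.

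The 15 ISWI hairpins as a group had a median of -2.02 at PD45 and -5.68 at PD60, against -1.63 and -5.86 over the library. Above the library median were 6 of 15 at PD45 and 9 of 15 at PD60.

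In the SWR1 class, SRCAP had the hairpin with the most tags of the set at PD60. SRCAP encodes the ATPase that exchanges H2A for H2A.Z. TRCN0000021355 had 8769, 6636, 8262, 4721 and 2762 tags at the 5 times, or 1017, 755.6, 974.3, 410.3 and 333.9 CPM. It stayed within 2-fold of its start through PD50 and was 3.04-fold lower (2.92 to 3.18) at PD60. In the order of the library it moved to place 132 at PD60, against place 164 at PD40, while its CPM was lower. Its percentile was 94.2 at PD60, and with TMM scaling its log2 fold change of -1.60 was 5.23. The other 4 SRCAP hairpins, which started at 977 to 2213 tags, ended at 0, 8, 27 and 50. TRCN0000021357, the best kept of these, was 42.4-fold lower (32.1 to 57.4). TRCN0000021356 was at 91 tags at PD45, against 977 at PD40, and at least 312-fold lower at PD60. The gene's mean of -5.16 (SD 2.14) at PD60 was 0.60 with TMM scaling, and it was the only one of the 11 gene means that changed sign.

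EP400 encodes the ATPase of the human TIP60 complex, which also exchanges H2A.Z. Its 4 hairpins were close together at PD55 and far apart at PD60. At PD55 their log2 fold changes were -4.01, -3.84, -3.72 and -3.52 (mean -3.77, SD 0.21), the smallest SD among the 11 genes at that time. At PD60 the mean was -6.49 (SD 2.68), with -7.37, -6.87 and -2.71 for 3 hairpins and a value lower still for TRCN0000050261. TRCN0000050261 had 9728, 10537, 5799, 1119 and 10 tags, and it was 80.4-fold lower (43.6 to 168) at PD60 than at PD55. Against PD40 it was 933-fold lower (507 to 1946). This was the lowest log2 fold change of the set at PD60, at percentile 0.951 of all hairpins. TRCN0000050260 was 10.4-fold lower (6.28 to 18.5) at PD60 than at PD55, with 16 tags against 232. TRCN0000050258 had 1 tag at PD60, against 151 at PD55, a ratio of 0.00921 (0.000232 to 0.0521).

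The exception was EP400 TRCN0000050262, with 1218, 522, 185, 103 and 171 tags. Its log2 fold change at PD60 against PD40 was -2.71 with column totals and 3.99 with TMM scaling. This hairpin was 2.31-fold higher (1.80 to 2.98) at PD60 than at PD55. It was the only one of 29 measured members over 2-fold higher in that last interval, against 5.4% of the library, while 21 of 29 were over 2-fold lower, against 73.2%. EP400's mean ranked 117th, 68th, 144th and 533rd of 631 genes at the 4 later times. Over the 29 members the median of the last interval was -2.63, against -1.82 over 1795 measured hairpins, and 10 of 29 lay above the library's median.

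Among the other SNF2 ATPases, HELLS had the latest peak of the set. HELLS, also called LSH, is the remodeller needed for normal DNA methylation of repeats. TRCN0000000307 had 473, 587, 439, 3694 and 421 tags in the 5 columns. In CPM this was 54.8, 66.8, 51.8, 321.1 and 50.9. With column totals the hairpin was near its starting level at PD45, PD50 and PD60 and far above it at PD55. Its ratio to PD40 was 5.86 (5.32 to 6.46) at PD55 and 0.928 (0.812 to 1.06) at PD60. From PD50 to PD55 it was 6.20-fold higher (5.62 to 6.86) and from PD55 to PD60 6.31-fold lower (5.70 to 6.99). It was the only member over 2-fold higher in the step to PD55, 1 of 38 measured, against 1.7% of the library. Its percentiles were 86.6, 89.3, 98.8 and 96.6. Its level at the other times depends on the scaling. The log2 fold change at PD60 was -0.11 with column totals, 6.52 with TMM, 6.62 with DESeq2's size factors and 2.27 without the 50 most abundant hairpins, and at PD50 it was -0.08 with column totals and 2.57 with TMM. The PD55 value rests on 1 column and has no check in these data.

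The other 4 HELLS hairpins started at 117 to 349 tags and were at 0 at PD60, at least 37.4-fold to 112-fold lower. TRCN0000000310 had 376 tags at PD45, against 349 at PD40, and then 45, 2 and 0. TRCN0000000306, TRCN0000000308 and TRCN0000000309 had 4, 18 and 20 tags at PD45. The gene's mean at PD60, -3.54 (SD 2.01), ranked 41st of 631 genes. It combines TRCN0000000307, whose level against its start depends on the scaling, with 4 hairpins whose values are limited by the few tags they started with. Without HELLS, 0 of the other 48 hairpins were over 2-fold higher at PD55.

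ATRX also had 1 hairpin with tags left at PD60 and 4 at 0. TRCN0000013592 had 6279, 10819, 10599, 4224 and 354 tags, or 727.9, 1232, 1250, 367.1 and 42.8 CPM. Its ratio was 1.69 (1.64 to 1.75) at PD45 and 1.72 (1.66 to 1.77) at PD50, under the 2-fold threshold. It was 1.98-fold lower at PD55 and 17.0-fold lower (15.3 to 19.0) at PD60, where its log2 fold change was 2.74 with TMM scaling. TRCN0000013589 was 1.20-fold higher (1.07 to 1.34) at PD45, with 725 tags against 595, and at 0 at PD60. TRCN0000013591 started with 1214 tags, had 73 at PD45 and 3 at PD50, and was at least 388-fold lower at PD60. TRCN0000013588 and TRCN0000013590 were also at 0 at PD60, at least 77.0-fold and 252-fold lower. Thus all 354 ATRX tags at PD60 came from TRCN0000013592.

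SMARCAD1 had 4 hairpins that began at 2030 to 7590 tags and divided into 2 pairs. TRCN0000050048 had 7590, 8673, 3553, 1256 and 483 tags and was 15.1-fold lower (13.7 to 16.6) at PD60. TRCN0000050049 had 4834, 4821, 3666, 1279 and 90 tags and was 51.5-fold lower (41.8 to 64.2). With TMM scaling their PD60 log2 fold changes were 2.92 and 1.15, so both directions depend on the scaling. At PD45 their ratios were 1.12 (1.09 to 1.16) and 0.980 (0.941 to 1.02), so both were near their start. The other pair was far lower from PD45 on. TRCN0000050051 had 625 tags at PD45, against 2114 at PD40, and was 405-fold lower (173 to 1250) at PD60. TRCN0000050052 had 407 tags at PD45, against 2030 at PD40, and 35, 3 and 2 later, a PD60 ratio of 0.00103 (0.000124 to 0.00372). At PD60 SMARCAD1 held 580 tags, against 16568 at PD40, which is 27.4-fold lower (25.2 to 29.8).

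SMARCAL1 had no hairpin above its PD40 level in any later column, and TRCN0000083571 had the lowest log2 fold change of the set at PD45, -4.99. That hairpin had 4 tags at PD45, against 390 at PD40, 99.3-fold lower (38.5 to 366) and at percentile 0.98 of all hairpins. It stood at 0 from PD50 on. TRCN0000083568 had 1626, 760, 1051, 425 and 17 tags, and was 1.43-fold higher (1.30 to 1.57) at PD50 than at PD45. TRCN0000083569 and TRCN0000083572 had 820 and 431 tags at PD45 and 4 and 6 at PD60, 351-fold and 130-fold lower than at PD40. TRCN0000083570 started at 116 tags and was at 0 at PD60, at least 37.1-fold lower. The sum over the 5 hairpins was 157-fold lower (107 to 238).

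Set in order by the sum of a gene's tags at PD60 relative to PD40, HELLS kept the most and was 2.81-fold lower (2.51 to 3.15), followed by SRCAP at 5.17-fold (4.97 to 5.39). ATRX at 24.7-fold (22.2 to 27.5) and SMARCAD1 at 27.4-fold had overlapping intervals. SMARCA5 at 70.1-fold (57.4 to 86.6), EP400 at 75.0-fold (65.2 to 86.7) and SMARCA1 at 104-fold (85.5 to 128) followed, then SMARCAL1 at 157-fold, INO80 at 207-fold, RUVBL1 at 367-fold and BPTF at 402-fold. From SMARCA5 to BPTF each interval overlapped that of its neighbour. The order rests on the leading hairpin, which held 61.3% to 100% of its gene's PD60 tags. By the mean over hairpins the order was different, with EP400 lowest at -6.49 and BPTF, SMARCA1, INO80 and SMARCAD1 between -6.17 and -6.07. These 5 means differed by less than the SD over hairpins of each of these genes. For BPTF that SD is largely set by starting tags and the pseudocount. The means are also bounded by how many tags a gene's hairpins started with. The median at PD40 ran from 157 tags for RUVBL1 to 3474 for SMARCAD1.

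Partner subunits of these complexes were taken from 3 lists and are given by counts alone. Over all measured hairpins at PD60, 2.28% were over 2-fold higher and 95.3% over 2-fold lower (median -5.86), and no list was tested against these shares. Of 9 ISWI partner genes in the table, with 43 measured hairpins, 0 hairpins were over 2-fold higher at PD60 and 43 over 2-fold lower (median -6.25). Their highest means were BAZ1B at -5.18 and BAZ2B at -5.92, and their lowest were BAZ2A, of the nucleolar remodelling complex, at -7.01 and the histone-binding RBBP7 at -6.79. Of 48 measured hairpins against 10 partners of INO80, SRCAP and EP400, 3 were over 2-fold higher and 43 over 2-fold lower (median -5.78). The higher ones were ACTL6A TRCN0000072275, at a ratio of 7.27 (7.05 to 7.50), and H2AFZ TRCN0000072585 and TRCN0000072584, at 2.46 (2.41 to 2.52) and 2.24 (2.14 to 2.34). ACTL6A encodes an actin-related subunit that SWI/SNF complexes also contain, and H2AFZ encodes H2A.Z. The highest means of that list were ACTL6A at -1.65 (SD 4.09) and H2AFZ at -2.16 (SD 3.33), 2nd and 5th of 631 genes. Its lowest means were ING3 at -7.84 and MORF4L1 at -7.40, both of the TIP60 complex. Of 28 hairpins against 6 partners of HELLS, ATRX and SMARCAL1, 1 was over 2-fold higher and 23 over 2-fold lower (median -5.64). That was RPA1 TRCN0000010982, at 2.15 (1.94 to 2.38), against a subunit of the single-stranded DNA binding protein that recruits SMARCAL1. The highest means there were RPA1 at -1.55 and the ATRX partner DAXX at -4.09, and the lowest were DNMT3B at -7.13 and H3F3B at -6.21.

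For the other remodeller families the same library shares, 2.28% higher and 95.3% lower at PD60, apply. Among the CHD and NuRD hairpins 0 of 70 measured were over 2-fold higher at PD60 and 70 over 2-fold lower (median -5.59). At PD45 58.5% of the set were over 2-fold lower, against 74.3% of the CHD and NuRD hairpins and 63.2% of all. The CHD and NuRD share of tags was 0.0228% at PD60, against 1.01% at PD40. Of 69 measured SWI/SNF hairpins 3 were over 2-fold higher and 62 over 2-fold lower (median -5.74). Their share was 4.45% at PD60, against 4.33% at PD40, and 61.2% of their PD60 tags were those of 1 hairpin. These differences between families were not tested.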

How the data were processed

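Genomic DNA of 50 samples (10 plates at each of 5 population doublings) was sequenced across the hairpin. The deposited values are counts, per the file headers as tags per hairpin, 1 column per population doubling. The submitters' processing notes list Bowtie 1.0.1. Neither its parameters nor the way plates were joined into a column is given in the sources used here. Columns held 8626437 (PD40), 8782622 (PD45), 8479667 (PD50), 11505688 (PD55) and 8270745 (PD60) tags.

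CPM are counts over the column total. A hairpin was measured if either column had 10 counts or more, and a pseudocount of 1 CPM was added. Over 2-fold was the threshold. Gene means took genes with at least 3 measured hairpins. Ratios have exact conditional Poisson intervals, with a floor of 3 counts. No test was run, since each group is 1 column. Alternatives were TMM (edgeR 4.0.16, R 4.3.3), DESeq2 1.42.0 size factors, column totals without the 50 most abundant hairpins, pseudocounts and count minimums. Python 3.11.15, numpy 2.4.6, pandas 2.3.3 and scipy 1.17.1 were used. The fold change and interval code was tested on simulated data.

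Members and lists (partners of ISWI, of INO80, SRCAP and EP400, and of HELLS, ATRX and SMARCAL1; SWI/SNF; CHD and NuRD) were chosen with earlier results of these data known. Named were all member genes, members over 2-fold higher at any later time, the 10 highest and 10 lowest at PD60 and the 5 most abundant at PD40 and PD60. Of each partner list, genes with a hairpin over 2-fold higher at PD60 and the 2 highest and 2 lowest means were named. Other member hairpins were described to account for all 53. Names matched the RefSeq table of GRCh38.p14 for 11 of 11 genes.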

Additional observations from a re-analysis of the deposited data

How the results depend on the processing

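No paired analysis was possible because the 10 plates share 1 value per population doubling. Adding hairpins that name several genes gave no value, since 0 of them name a member gene. A median counted as moved when it shifted by more than the SD over member hairpins, which are not replicates. Chosen after seeing the data were PD45 as the starting column, a minimum of 400 counts at PD40 and leaving out HELLS. For no change below was the cause tested.

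Scaling decided the counts over 2-fold higher and lower. With TMM, 13, 16, 15 and 13 member hairpins were over 2-fold higher and 17, 24, 27 and 32 lower at PD45, PD50, PD55 and PD60, with medians of -0.78, -1.12 and -1.39 at the last 3 times. On TMM the library itself had 19.8%, 25.6%, 23.6% and 18.8% higher and 34.3%, 46.4%, 54.8% and 64.4% lower. Its medians were -0.79, -1.26 and -1.84 at the last 3 times. With DESeq2's size factors 7, 13, 11 and 13 were higher, against 14.8%, 20%, 20.3% and 19.3% of all hairpins. From PD50 on 27, 30 and 32 were lower, against 54.1%, 59.8% and 64.8% of all. The medians were -1.11, -1.40 and -1.49, against -1.21, -1.58 and -1.91 over all hairpins. With column totals without the 50 most abundant hairpins, the higher counts were 4, 2 and 1 of 53 from PD50 on. Of all hairpins, 8.83%, 6.93% and 5.12% were higher under that setting. The mean of PD55 and PD60 against that of PD40 and PD45 gave 1 higher hairpin. Leaving out HELLS gave 0 higher at PD55, and a minimum of 400 counts gave 18 lower at PD45, on fewer hairpins. A pseudocount of 10 gave a PD60 median of -3.38, and one of 0.1 gave -7.67.

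The share of tags was 1.63%, 1.59%, 1.47%, 0.804% and 0.367% without the 50 hairpins most abundant over the 5 columns, none of them a member. Without the most abundant member of each column it was 1.08%, 0.915%, 0.560%, 0.161% and 0.0243%. Of the 11 gene means at PD60, the one for SRCAP turned to 0.60 with TMM and to 0.60 with DESeq2's size factors. Means stayed negative under all other settings run.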
